A study of Mus musculus with 19 samples.

Results

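The genes described here encode the SPEN family of RNA-binding proteins and the NCoR/HDAC3 corepressor complex that SPEN recruits. The 7 genes are Spen itself and its relatives Rbm15 and Rbm15b, and the complex genes Ncor1, Tbl1xr1, Gps2 and Hdac3. They were chosen by name, with earlier results of these data known, out of 26215 genes with a curated RefSeq transcript. Their peaks were those that the authors' deposited annotation assigned to them, within 5 kb and within 50 kb of the transcription start site (TSS). Of 80795 peaks in the 19 lists, 46 were assigned to one of the 7 genes at any distance, and 7 lay within 50 kb of the TSS. All 7 were also within 5 kb, all came from 1 library, and they belonged to 5 of the 7 genes. In that library 17.6% of all genes had such a peak within 5 kb. The remaining assigned peaks lay far upstream of Tbl1xr1.

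SPEN proteins carry RNA recognition motifs at one end and, at the other, a domain that docks the NCoR corepressor complex. This complex holds the deacetylase HDAC3, which removes acetyl groups from histones and so represses transcription. SPEN is known as the corepressor that turns the Notch effector RBPJ into a repressor, and as the factor that Xist RNA uses to silence genes of the inactive X. RBM15 and RBM15B share the domain plan of SPEN and bring the RNA methylation machinery to their RNA targets.

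The study mapped SPEN on chromatin of FVB/N mouse testes (adult males of 10 to 16 weeks) by chromatin immunoprecipitation and sequencing. Mixed testicular cells were precipitated with either of 2 rabbit polyclonal antibodies. One, raised against an N-terminal stretch of SPEN, gave 3 libraries (untreated, 38 °C for 15 min, and 38 °C for 30 min with 2 h of recovery), and one against an internal stretch gave 9. The 9 were untreated cells and cells at 38 °C or 43 °C for 15 min, for 30 min, and for 30 min with 2 h or 4 h of recovery. Cells enriched in spermatocytes, to at most 80% per the labels, gave 4 libraries of the internal antibody: untreated, and 43 °C for 30 min without recovery, with 2 h and with 4 h. The untreated state was 32 °C, the physiological temperature for these cells. The 3 background libraries were a rabbit IgG precipitation pooled over all treatments of testicular cells and an input mixture from each cell population. The labels name no mutant and no gene was perturbed. Each SPEN library combined 5 to 6 precipitations, so each condition had 1 library. No test between conditions was possible, and all values below have no replicate error.

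List length differed widely between libraries. The untreated testicular library of the internal antibody, below the untreated internal library, held 29315 peaks and the spermatocyte library at 4 h of recovery 9707, while the other SPEN lists held 1682 to 3590 peaks. Peak lists carry no read totals, so depth is unknown and its part in list length was not tested. A peak was called background-free when no base of it was covered by a peak in any of the 3 background libraries. Distances to a TSS are from the centre of the peak. The score is the value that the authors' peak caller gave each peak, and its lowest value was about 50 in every list (50.0 to 50.02).

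Spen had 1 peak near its start. In the untreated internal library it lay on chromosome 4 (mm10) from 141537949 to 141538263, 491 bp downstream of the TSS, in intron 1 of 15 at an annotated CpG island. Its score was 53.39, close to the lower limit of the list. It ranked 21354th of the 27370 background-free peaks, and 22.0% of these scored as low or lower. Spen spans 70.8 kb in the RefSeq table, and this was the one background-free peak inside it. The start of Gm4123 lies 2557 bp from the centre of the peak. The other 15 SPEN libraries had no peak at all in the gene or within 50 kb of either end, and their nearest peak lay 258 kb away or farther.

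Rbm15, which is known to bind Xist and other RNAs that become methylated, also had 1 peak in that library. It lay in exon 1 of 2 on chromosome 3 from 107332475 to 107332661, 721 bp downstream of the TSS, with a score of 59.07. This was the peak farthest from its TSS among the 7. Rbm15b, the close relative of Rbm15, had no peak within 50 kb in any of the 19 libraries. Its nearest peak in the untreated internal library was 58.6 kb from the gene, on chromosome 9 at the start of the gene named Vprbp in the files (score 57.45). In 14 of the other 15 SPEN libraries and in all 3 background libraries the nearest peak to Rbm15b was a common position 643 kb away, assigned to Tmem115.

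Rich CpG content at the start was shared by the 5 genes with a peak and by Rbm15b, without one. The window from 250 bases before to 50 after a start was counted as CpG-rich when at least 50% of its bases were G or C and its CG dinucleotides reached at least 0.6 of the number that its base content gives. The main windows of Spen, Rbm15, Rbm15b, Ncor1, Tbl1xr1 and Gps2 were all CpG-rich, and the window of a second Ncor1 start was not. Of all windows of protein-coding genes, alternative starts included, 46.5% were CpG-rich. Those of Spen and Rbm15b are among the richest in CG dinucleotides, with 54 in Spen and 46 in Rbm15b, against a median of 14 over 20487 windows of protein-coding genes. Spen had a peak starting 284 bases downstream of its window and Rbm15b had none. The Spen window also holds 1 copy of GTGGGAA, the core of the site that RBPJ binds, searched on both strands. The copy is on the sense strand and begins 9 bases upstream of the TSS. It lies outside the Spen peak, whose own bases were not searched. Among windows of protein-coding genes 6.20% held this core, and none of the other 5 genes' windows did. GAANNTTC, a core of the heat shock element, was in none of the 6 genes' windows and in 7.06% of all. A match describes the letters only. The sequences are from RefSeq (GRCm38.p6, the assembly of mm10), read 5′ to 3′ on the gene's strand. In the first line capitals mark the RBPJ core at the start of Spen (chr4:141538548-141538847, minus strand), and in the second they mark CG dinucleotides at the start of Rbm15b (chr9:106887026-106887325, minus strand).
Spen: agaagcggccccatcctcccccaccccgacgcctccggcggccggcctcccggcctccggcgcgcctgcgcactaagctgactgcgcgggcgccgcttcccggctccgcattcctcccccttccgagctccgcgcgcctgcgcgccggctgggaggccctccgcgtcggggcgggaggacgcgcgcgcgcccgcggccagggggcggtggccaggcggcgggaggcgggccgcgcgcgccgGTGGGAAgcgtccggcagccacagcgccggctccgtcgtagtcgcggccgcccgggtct
Rbm15b: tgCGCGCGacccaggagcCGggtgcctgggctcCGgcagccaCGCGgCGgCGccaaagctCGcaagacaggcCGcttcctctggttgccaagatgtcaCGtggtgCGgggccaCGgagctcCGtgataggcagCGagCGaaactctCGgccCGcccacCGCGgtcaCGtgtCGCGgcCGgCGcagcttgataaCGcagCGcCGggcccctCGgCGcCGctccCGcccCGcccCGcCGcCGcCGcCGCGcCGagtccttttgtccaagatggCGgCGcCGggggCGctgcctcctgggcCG

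Ncor1, the scaffold that carries HDAC3, had the strongest signal of the group. Its main peak lay on chromosome 11 from 62456867 to 62457368, 215 bp downstream of the TSS in intron 1 of 8, at a CpG island. Its score of 148.79 ranked 1377th of the background-free peaks, and 4.20% of all 4615 genes with a peak within 5 kb had a highest score as high or higher. A weaker peak (score 59.11) lay 195 bp upstream of the same TSS, from 62457425 to 62457630. A gap of 56 bases separates the 2 peaks, and the TSS falls in the main peak. Ncor1 spans 141.8 kb, and no further background-free peak lay in it. The window of the second annotated start of Ncor1, inside the gene, lay 18101 bases from the nearest of these peaks. The start of Pigl, a gene for glycolipid anchor synthesis, lies 914 bp from the centre of the weaker peak, so these peaks sit near starts of both genes.

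The bases from 250 before to 50 after the start of Ncor1 show the start inside the main peak and the weaker peak upstream of it. This was the one window of the 6 genes with a window in which a peak overlapped it: 244 of 300 bases were covered. The sequence is again from RefSeq (GRCm38.p6). Capitals mark the bases inside a peak, at chr11:62457283-62457582 on the minus strand.
Ncor1: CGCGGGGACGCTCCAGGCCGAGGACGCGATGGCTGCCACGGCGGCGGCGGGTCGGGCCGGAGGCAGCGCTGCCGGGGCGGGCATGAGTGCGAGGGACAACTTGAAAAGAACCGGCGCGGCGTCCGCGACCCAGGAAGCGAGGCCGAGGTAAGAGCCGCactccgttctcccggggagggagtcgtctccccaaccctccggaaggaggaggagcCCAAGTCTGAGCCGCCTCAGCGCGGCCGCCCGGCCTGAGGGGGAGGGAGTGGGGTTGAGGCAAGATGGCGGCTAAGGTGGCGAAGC

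Tbl1xr1, which exchanges corepressors for coactivators at nuclear receptor targets, had 2 peaks. The stronger (score 71.16) covered part of the 5′ untranslated region in exon 1 of 16, on chromosome 3 from 22076736 to 22077067, 249 bp downstream of the TSS. The weaker (score 50.24) lay 565 bp upstream, from 22076000 to 22076174, and 2.53% of the background-free peaks of the list scored as low or lower. Like Ncor1, this gene had a stronger peak downstream of its start and a weaker one upstream.

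Gps2, a small subunit that bridges NCoR and TBL1 proteins, had 1 peak with a score of 52.55 on chromosome 11 from 69914141 to 69914606. The authors' annotation placed it 181 bp downstream of a Gps2 TSS, against 353 bp from the RefSeq one, and labelled it as the end of NM_001013414, a transcript of the neighbouring gene Neurl4. The RefSeq table puts Gps2 from 69913980 to 69917056, so in that table the peak lies inside Gps2. Hdac3, the deacetylase of the complex, had no peak assigned to it in any library. In the untreated internal library a peak with a score of 53.94 lay 1.7 kb beyond one end of the gene on chromosome 18, and it was assigned to Diaph1, 253 bp from that gene's start. A second peak in the flanks of Hdac3 was assigned to Mir6980 (score 53.65).

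**Figure D1:**
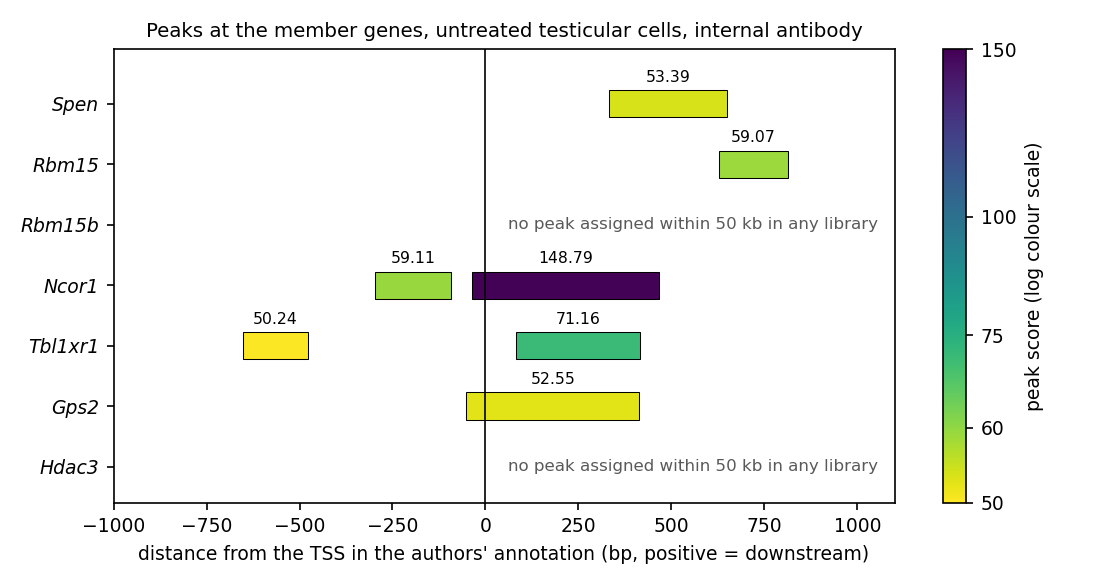
Peaks within 50 kb of the TSS of the 7 genes in the untreated internal library. The horizontal axis gives the distance from the TSS in bp, each bar spans the width of a peak, and its colour and label give the peak score. All bars lie within 1 kb of the TSS, Ncor1 has the highest score (148.79), and Rbm15b and Hdac3 have no assigned peak.

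The 7 peaks had in common that they sat at gene starts and outside repeats. Their distances ran from 565 bp upstream to 721 bp downstream, and 5 of 7 were downstream. Among all 5577 background-free peaks of this list within 5 kb of a TSS, 77.0% lay within 1 kb (95% interval 75.8 to 78.1%), 73.3% lay downstream (72.2 to 74.5%) and 8.09% lay in an annotated repeat (7.38 to 8.83%). A CpG island was the detailed annotation of 2 of the 7 peaks and of 17.5% of all (16.5 to 18.6%). The 7 peaks were not tested against these shares. They were 175 to 502 bp wide with a median of 315 bp, against a median of 219 bp for all promoter peaks. The next assigned peak was 94951 bp upstream of Tbl1xr1, and none of the 7 genes had one between 5 kb and 50 kb, so both windows gave the same count.

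The scores of the 5 genes lay on both sides of the middle of the list. Of the 7 peaks, 6 scored under 75, as did 66.6% of all promoter peaks of the list (65.4 to 67.9%). The highest score per gene had a median of 59.07 over the 5 genes and of 66.71 over all 4615 genes with a peak, with Ncor1 and Tbl1xr1 above the latter and Rbm15, Spen and Gps2 under it. In order, Ncor1 (148.79) came before Tbl1xr1 (71.16), Rbm15 (59.07), Spen (53.39) and Gps2 (52.55). With 1 library no spread is known that could separate neighbours in this order.

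**Figure D2:**
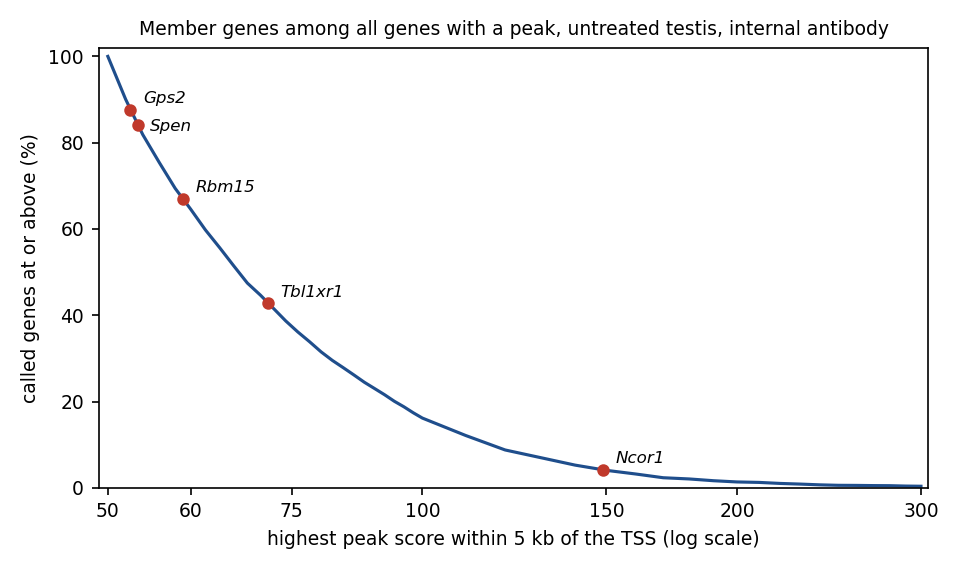
Share of the 4615 genes with a peak within 5 kb, in the untreated internal library, whose highest peak score was at or above the value on the horizontal axis (log scale). Red points mark the 5 genes: Ncor1 stands at 4.20% of genes, Tbl1xr1 at 42.8%, and Rbm15, Spen and Gps2 at 67.0% to 87.7%.

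In the untreated internal library 5 of the 7 genes had a background-free peak within 5 kb, where 17.6% of all genes did (17.1 to 18.1%). Within 50 kb it was again 5 of 7, against 34.8% of all genes. The 7 genes are protein coding, and among protein-coding genes the share within 5 kb was 20.2%. Among protein-coding genes with a CpG-rich window 28.7% had a peak within 5 kb (27.7 to 29.7%), and among those without it 11.8% (11.1 to 12.5%). The 5 of 7 is a description of a group picked by name with earlier results of these data known, and it was not tested. Ncor1 and Tbl1xr1 had 2 peaks each within 5 kb, and 3.02% of all genes had 2 or more. Within 1 kb the count stayed at 5 of 7, with 14.0% of all genes. With a score of at least 75 it was Ncor1 alone, with 6.55% of all genes.

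After heat shock none of the 7 genes had a peak within 50 kb in testicular cells. This held for the 8 libraries of the internal antibody and the 2 of the N-terminal antibody, with background-free peaks and with all peaks. The share of all genes was low there too. At 38 °C the internal antibody had a peak within 5 kb of 0.137% of all genes after 15 min, 0.416% after 30 min, 0.122% at 2 h and 0.111% at 4 h of recovery. At 43 °C the shares were 0.111% after 15 min, 0.103% after 30 min, 0.134% at 2 h and 0.107% at 4 h. Within 50 kb the same libraries had 0.584%, 1.8%, 0.603% and 0.637% at 38 °C, and 0.633%, 0.565%, 0.698% and 0.713% at 43 °C. Over all 10 heat-shocked testicular libraries together 0.896% of all genes had a peak within 5 kb and 4.0% within 50 kb. A count of 0 among 7 genes is near those shares and shows no loss particular to these genes. The library at 38 °C for 30 min had the highest share of the 8, and Spen, Ncor1 and the other 5 genes had no peak there either.

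**Figure D3:**
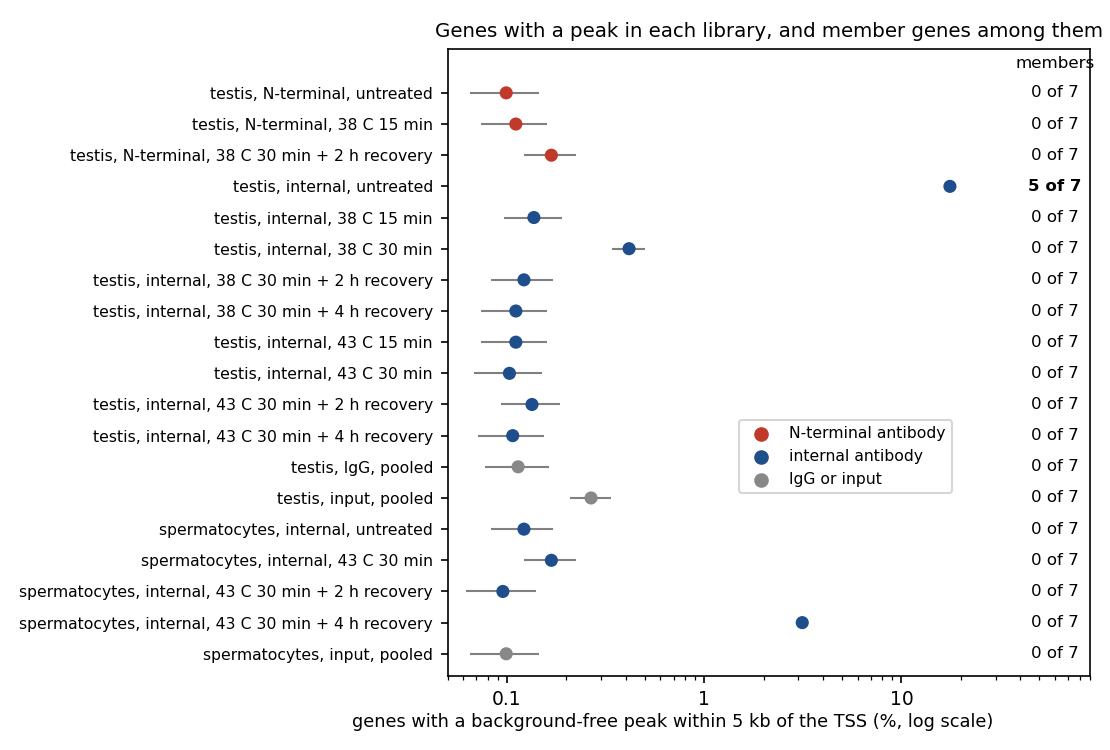
Share of all 26215 genes with a background-free peak within 5 kb of the TSS in each of the 19 libraries, on a log axis, with exact 95% intervals that cover counting error only. The numbers at the right give how many of the 7 genes were among them: 5 in the untreated internal library, where 17.6% of genes had a peak, and 0 in each of the other libraries.

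List length and heat cannot be told apart in this contrast, with 1 library per condition, and the part of length was not tested. After the data were seen, the untreated internal list was shortened to its 10000, 5000 and 2500 highest-scoring peaks, and each time Ncor1 alone of the 7 genes remained. With 2500 peaks 212 of all genes (0.809%) were left, and with 10000 peaks 1675 (6.39%). The heat-shocked lists of that antibody held 2452 to 3590 peaks, and Ncor1 was the one gene with a peak in an untreated list of like total length. Its main peak ranked 2391st of 29315. Of background-free peaks alone, the heat-shocked lists held 683 to 1442, and the main Ncor1 peak ranked 1377th in the untreated list. That rank is within the number held at 38 °C for 30 min (1442) and beyond that of the others (971 or fewer). With 1000 peaks none of the 7 was left, and 39 of all genes (0.149%). Tbl1xr1 came back at 15000 peaks, Rbm15 at 20000, and Spen and Gps2 at 25000. In rank by score the peaks of these 4 genes lay below the total length of every heat-shocked list of this antibody. The main peak of Ncor1 lay at about the total length of the shortest.

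**Figure D4:**
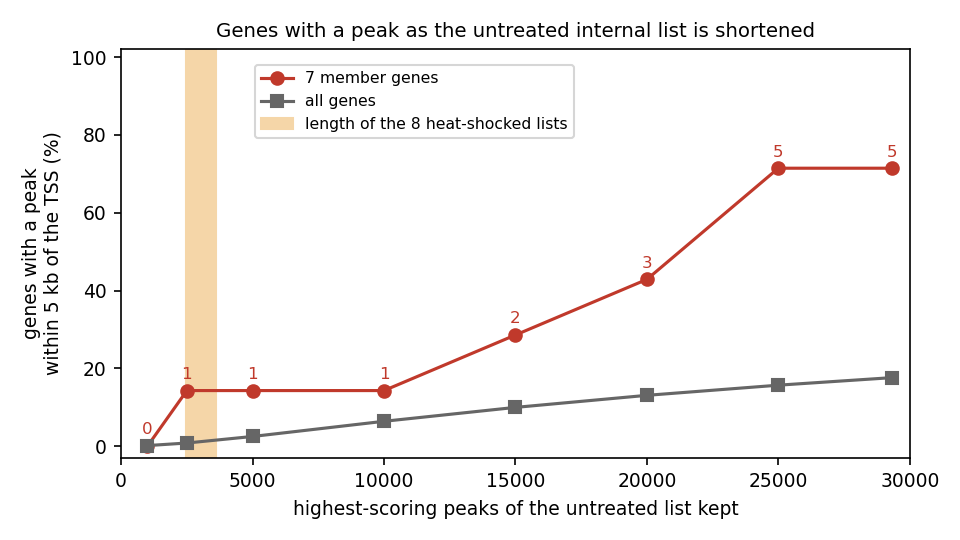
Share of the 7 genes (red, with their number) and of all 26215 genes (grey) with a background-free peak within 5 kb of the TSS when the untreated internal list is limited to its highest-scoring peaks. The shaded band gives the total lengths of the 8 heat-shocked testicular lists of the same antibody (2452 to 3590 peaks), where 1 of the 7 genes, Ncor1, is left. These 8 lists held 683 to 1442 background-free peaks, and the main Ncor1 peak ranked 1377th among those of the untreated list.

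The N-terminal antibody gave no peak within 50 kb of any of the 7 genes, in untreated or in heat-shocked cells. Its peaks were within 5 kb of 0.0992% of all genes when untreated, 0.111% after 15 min at 38 °C and 0.168% with 30 min and 2 h of recovery. Within 50 kb the shares were 0.599%, 0.599% and 0.9%, and 1.45% over the 3 libraries together. The counts of 0 are near these shares, so they do not show whether the antibodies differ at the 7 genes. Folder names in the file headers set the 3 N-terminal libraries apart from the 16 others, background included, so antibody and folder cannot be told apart.

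In spermatocytes none of the 7 genes had a peak within 50 kb. The shares of all genes within 5 kb were 0.122% untreated, 0.168% after 30 min at 43 °C and 0.0954% with 2 h of recovery, and within 50 kb 0.675%, 0.645% and 0.523%. At 4 h of recovery, in the long list, 3.14% of all genes had a peak within 5 kb and 12.1% within 50 kb. Over the 15 SPEN libraries other than the untreated internal one, 14.7% of all genes had a peak within 50 kb, and 0 of the 7 genes did. In the list at 4 h a peak 18.2 kb from Rbm15 was assigned to Slc16a4 (score 54.62), and one 41.0 kb from Ncor1 was assigned to Pigl (score 50.27). The background libraries had no peak within 50 kb of any of the 7 genes. For the shares of these libraries a peak counted when it shared no base with a peak of the other two. The IgG had a peak within 5 kb of 0.114% and within 50 kb of 0.668% of all genes, the testicular input of 0.267% and 1.1%, and the spermatocyte input of 0.0992% and 0.618%.

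Genes beside the 7 had peaks of their own in the untreated internal library. B330016D10Rik, a long non-coding RNA gene beyond the 5′ end of Spen, had a peak at 141546783 to 141547080 on chromosome 4 with a score of 57.07, higher than that of Spen. Ttc19, beyond the other end of Ncor1, had a promoter peak with a score of 80.65, lower than that of Ncor1. Around Tbl1xr1 both further peaks within 50 kb of the gene were intergenic and assigned to Rprl2 (scores 56.49 and 53.37). Gps2 and Rbm15b had no neighbouring peak within 50 kb assigned to another gene.

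Tbl1xr1 was also assigned peaks far upstream, mostly in repeats. By the nearest-TSS rule of the authors' annotation 16 sites beyond 50 kb were assigned to it, from 94951 bp to 843 kb upstream, and 14 of them lay in annotated repeats. LINE-1 elements held 6 of these and LTR elements 4. A site 378 kb upstream, annotated as a TTAGGG simple repeat in most lists, was called in all 16 SPEN and all 3 background libraries. Its score was 596 to 738 in the background libraries and 396 to 1109 in the SPEN libraries. A site 463 kb upstream in an L1Md_T element (chromosome 3, 21614001 to 21614313) was absent from the background libraries and was called in 5 SPEN libraries. They were the 3 N-terminal ones (score 318 untreated, 279 with 15 min of heat and 460 with 30 min of heat and recovery) and the longest lists, untreated testicular cells (67.80) and spermatocytes at 4 h (79.66) with the internal antibody. One more, in an L1Md_A element 624.5 kb upstream, was in the same long lists of the internal antibody (80.22 and 52.43). The other 13 sites were each called in 1 library, 12 of them in the untreated internal library. The score cannot be compared between lists of different antibodies or lengths.

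**Figure D5:**
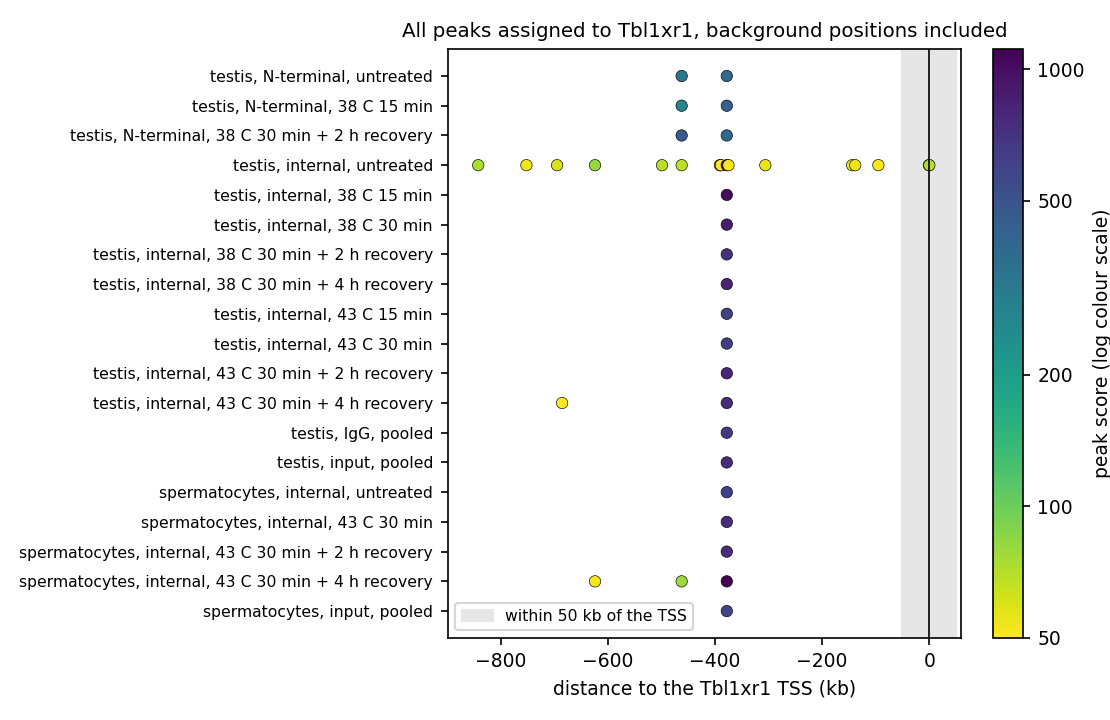
All peaks that the authors' annotation assigned to Tbl1xr1, by distance from its TSS in kb (horizontal axis) and library (vertical axis), coloured by peak score on a log scale. The column of points 378 kb upstream is in all 19 libraries, the site 463 kb upstream in 5 SPEN libraries and no background library, and peaks within 50 kb of the TSS (grey band) occur in the untreated internal library.

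Further genes of the same pathways were counted by class, and the classes are small and were not tested against each other. Of 34 listed genes, 10 had a background-free peak within 5 kb in the untreated internal library (29.4%). The share was 17.6% of all genes, 20.2% of protein-coding genes and 28.7% of protein-coding genes with a CpG-rich window. How many of the 34 genes have a CpG-rich window was not counted. The highest scores of the 10 genes ran from 50.77 to 68.94 with a median of 64.21. None reached a score of 75. Of the 7 genes of the RNA methylation machinery 5 had a peak, led by Wtap, the adaptor subunit of the writer complex (score 68.94), and Ythdc1, a nuclear reader of the mark (67.36), with the ubiquitin ligase homologue Cbll1 at 60.10. Of the 7 SPEN partners 2 had one: Sra1, a coactivator RNA gene (66.99), and Hnrnpk, a factor of Xist silencing (66.18). The Sra1 peak lay at -2742 bp from its TSS, annotated in an intron of NM_146085. Rbpj had none within 5 kb, and a peak at -7086 bp from its TSS scored 89.29. Of 12 genes of other deacetylase complexes 3 had one, the histone chaperone gene Rbbp4 (64.89), the deacetylase gene Hdac2 (63.53) and the scaffold gene Sin3a (54.08). The further genes closest to the NCoR complex had none. These were Tbl1x, Coro2a, Zbtb33 and the class IIa deacetylase genes Hdac4, Hdac5, Hdac7 and Hdac9. In the untreated internal library they had 0 of 7 within 5 kb and 0 of 7 within 50 kb, beside 17.6% and 34.8% of all genes. Each of the other 15 SPEN libraries also had 0 of 7. There 0.523% to 12.1% of all genes had a peak within 50 kb, so 0 of 7 is near the share in the short lists.

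In the other 15 SPEN libraries Wtap was the one gene of the 34 with a peak within 5 kb. It was called in spermatocytes at 43 °C for 30 min (54.87) and at 4 h of recovery (51.48), 4.7 kb inside the gene in a B1_Mm repeat, and these peaks shared 129 bases with each other and none with the promoter peak of untreated testicular cells. Further from the TSS, a peak in intron 2 of Kdm1a, a histone demethylase gene, was in untreated testicular cells (56.50) and in spermatocytes at 4 h (81.11) with 100 shared bases. A B1_Mm repeat in Mettl14, a subunit of the writer complex, was called in untreated testicular cells (67.04) and at 4 h of recovery from 38 °C (55.56). No such recurrence was seen at Spen, Rbm15, Ncor1, Tbl1xr1 or Gps2 within 50 kb.

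The pattern of the 5 genes over the libraries was the usual one. Of 5204 genes with a background-free peak within 5 kb in any SPEN library, 4179 besides each of the 5 had theirs in the untreated internal library alone. Dpyd, H2ac15 and Zfp952 had the same highest score as Spen (53.39), and the likeness rests on 1 positive library of 16.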

How the data were processed

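Peaks were described in 16 SPEN and 3 background libraries of mouse testicular cells, grouped by the labels. Bowtie2, SAMtools, HOMER and the build mm10 are named in the submitters' processing notes. Peaks carry MACS names, and each list was annotated by HOMER's annotatePeaks.pl on mm10, per the file headers. Tool versions, calling threshold and control sample are not given in the sources used here. Scores were deposited by the authors, one per peak; the distance in bp to the TSS and the gene are the authors' deposited annotation. Depth is unknown.

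Background-free peaks shared not even 1 base with a peak of IgG or either input. Genes were matched by Entrez ID to RefSeq (GRCm38.p6), where all 7 genes and all 34 related genes were found; 6 of the 7 had a promoter window. Shares carry exact Clopper-Pearson 95% intervals for counting error only. The overlap step was tested on simulated data. The members and lists were chosen with earlier results of these data known, and the CpG classes, motifs and list lengths after the data were seen. Named related genes were up to the 8 highest scores in the untreated internal library and any with a peak within 5 kb elsewhere. Rbpj, Kdm1a and Mettl14, outside this rule, were chosen after their values were seen. Of the 34 related genes 1 is counted in the total and not reported here by itself. With 1 library per condition nothing was tested. Python 3.11.15, pandas 2.3.3 and SciPy 1.17.1 were used.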

Additional observations from a re-analysis of the deposited data

How the results depend on the processing

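Other windows and other definitions of background left the count at 5 of the 7 genes, as did assigning peaks to every TSS in reach in the RefSeq table, where Hdac3 had no start to use. Score and list length changed it. With a score of at least 75 the count was 1 gene (Ncor1) at 5 kb and at 50 kb, and related genes fell to 0; with the 1000 highest-scoring peaks both were 0. With 2500, 5000 or 10000 peaks, lengths chosen after seeing the data, it was 1. Leaving out the untreated internal library, also chosen afterwards, left 0 genes in any SPEN library. Assigning to every TSS in reach gave 2 genes within 50 kb in spermatocytes at 4 h of recovery, because the peaks near Rbm15 and Ncor1 then counted. Counts of 0 in heat-shocked testicular and N-terminal libraries stayed at 0 under the alternatives run. The share of all genes, 17.6%, was 15.7% at 2.5 kb and 21.6% at 10 kb, 6.55% at a score of at least 75, 0.149% with 1000 peaks and 16.7% with every TSS in reach. No paired analysis was possible because each condition had 1 library and no replicate numbers. Unknown depth limits every count.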
